A study of Mus musculus with 6 samples.

Results

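The genes described here are 46 components of the cell division machinery, chosen by symbol as genes of DNA replication, mitosis and the control of entry into the cycle. All 46 were among the 54735 gene symbols of the count tables, and all 46 passed the filter on low counts, with a lowest value of 262 reads for Ccne2 in RARdn 3. By role, 14 were replication genes, 21 were mitosis genes, 8 were cyclins, kinases and an activator of the passage from G1 to S phase, and 3 were inhibitors of cyclin-dependent kinases. They were measured by RNA sequencing of whole pancreas from mouse embryos at e16.5. The 3 RARdn pancreata carried the RARdnfl/fl allele together with Neurog3:cre, and the 3 control pancreata carried Neurog3:cre alone. Both groups had a mixed background of C57Bl6 and 129SV. The name RARdn is commonly used for retinoic acid receptors with dominant-negative action, and the labels leave it unexplained. The cre driver acts in endocrine progenitors and the cells that descend from them, which are a small part of the organ, while dividing cells of every other lineage of the pancreas were in the same lysate. Fewer dividing cells and less RNA per dividing cell cannot be told apart in such samples. Litters and preparation days are not labelled. The p-values therefore rest on how far these 6 samples scatter, and technical scatter may be included.

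Cells copy their DNA once per cycle by loading the MCM helicase onto origins, activating it with Cdc45 and the GINS complex, and synthesising DNA behind it. They then condense, align and separate the chromosomes under the control of Cdk1, Plk1 and the Aurora kinases. Transcripts of the replication machinery are made mainly around the start of S phase, when E2F factors are released from Rb proteins, and those of the mitotic machinery mainly in G2 and M, through B-Myb and Foxm1 with the MuvB complex. In the embryonic pancreas most division takes place in progenitors, acinar cells and mesenchyme, and the cells that switch on Neurog3 largely leave the cycle.

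Libraries held 35256531 to 52015498 counts in genes in RARdn and 38572573 to 44735721 in control pancreas. Levels below are CPM, counts relative to the library total, with TMM scaling, whose factors were 0.862 to 1.22 in RARdn and 0.974 to 1.0035 in control libraries. The summed level of 18 acinar genes was 42131, 162590 and 225080 CPM in RARdn 1, 2 and 3, against 123680 to 136200 CPM in controls. That of 9 hepatocyte genes was 1280, 289 and 27.9 CPM in RARdn 1, 2 and 3, against 22.3 to 28.7 CPM in controls. Ribosomal RNA genes took 0.0718% to 0.0819% of the counts in RARdn and 0.900% to 0.946% in control libraries, and reads outside genes 2.90% to 5.30% and 7.60% to 8.99% of all reads. Xist, which is transcribed from the inactive X chromosome, was at 0.103 to 0.230 CPM in RARdn pancreas and at 1158, 0.312 and 1118 CPM in controls 1 to 3. Only controls 1 and 3 were high, so the Xist level partly coincides with genotype, and sex is not labelled.

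Of the 46 genes, 1 fell in RARdn pancreas and none rose. The gene was Cenpf, a large protein of the nuclear matrix and kinetochore, at 53.1 ± 7.09 CPM in RARdn and 86.3 ± 2.89 CPM in control pancreas (SD, n = 3 each). Mki67, Cenpe and Top2a, of which Mki67 and Top2a are common marks of dividing cells, also had every RARdn library below every control, and none of these 3 passed (adjusted p 0.0539 to 0.130). The other 17 mitosis genes and the replication genes had fitted differences of at most 0.35 on the log2 scale in either direction. Over all 19070 genes tested by edgeR's quasi-likelihood test, 2.65% were called lower and 1.37% higher at an adjusted p under 0.05, together 4.02%, and 1 of 46 is near this background. At an unadjusted p under 0.05 were 8 of the 46 genes, 5 of them lower, where the table as a whole had 22.2% in either direction and 10.2% lower. Groups did not overlap for 9 genes, 6 with all RARdn libraries lower and 3 with all higher, beside 13.7% and 13.9% of all genes. The fitted log2 fold change was below 0 for 29 of the 46 and for 50% of all genes, with medians of -0.0729 and 0.000513. DESeq2 called 4 of the 46 genes, all lower (Cenpf, Mki67, Cenpe and Top2a), where it called 9.58% of the genes it adjusted, 5.31% lower. With limma-voom 2 were called, both lower (Cenpf and Mki67), beside 4.17% of all genes and 2.75% lower. Without RARdn 1, 2 or 3, edgeR called 3, 0 and 5 of the 46, beside 4%, 0.655% and 14.8% of all genes in the same fits. Without control 1, 2 or 3 it called 1, 0 and 0, beside 1.75%, 0.509% and 1.49%. The 5 genes without RARdn 3 are 10.9% of the 46, a smaller share than that of all genes.

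**Figure D1:**
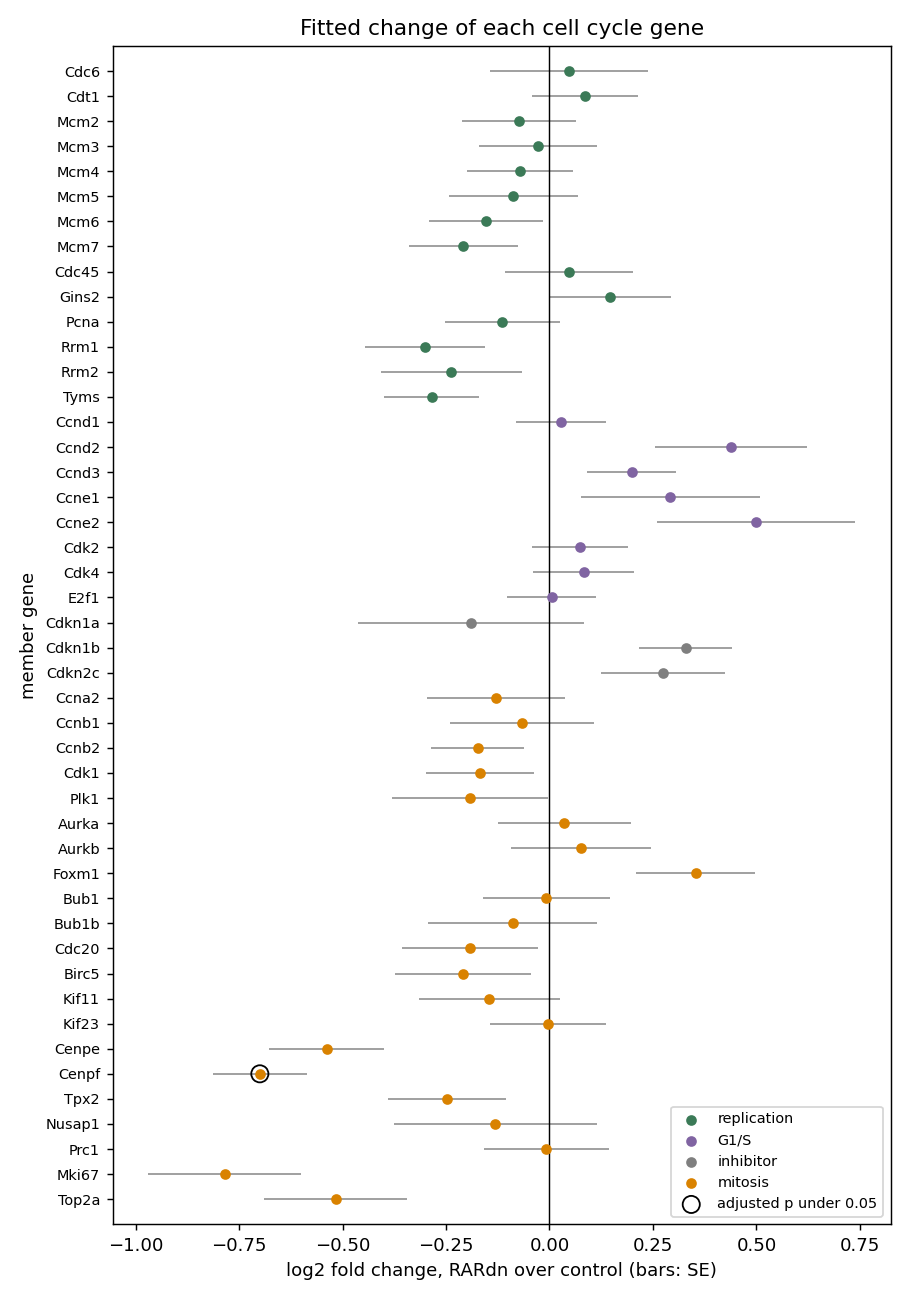
Fitted log2 fold change (x axis, RARdn over control, with its standard error as bars) for each of the 46 genes (y axis), coloured by role, with a ring around genes at an adjusted p under 0.05. Only Cenpf carries the ring, at -0.70, and Mki67, Cenpe and Top2a are the other genes below -0.5.

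The RARdn pancreata differed among themselves far more than the controls did. The SD of a gene over the 3 RARdn libraries was 19.9% of its mean in the median gene of the 46, and 5.28% over the 3 controls. Over all genes tested the control value was 10.4%. The RARdn value over all genes is not given, so the larger spread is not shown to be particular to the 46. The order among the RARdn libraries was nearly uniform. RARdn 1 was the highest, RARdn 3 intermediate and RARdn 2 the lowest for 21 of 21 mitosis genes and 13 of 14 replication genes, an order seen in 12.3% of all genes tested. RARdn 2 was the lowest of all 6 libraries for 20 of the 21 mitosis genes and 13 of the 14 replication genes, beside 16.8% of all genes, and RARdn 1 was the highest of all 6 for 13 and 9 of them, beside 22.3%. The G1/S genes and the inhibitors did not share this order, which held for 3 of 8 and 0 of 3. Genes of one library share its composition, depth and scaling, so these shares describe the libraries. In the description fields RARdn 2 and RARdn 3 begin with a number that RARdn 1 lacks, and its meaning is not labelled. Among the cell type lists, the same order held for 6 neural crest and glia genes, whose summed level was 104, 72.3 and 80.4 CPM in RARdn 1, 2 and 3 and 67.1 to 81.9 CPM in controls. The 13 erythroid genes, which mark another dividing lineage, summed to 4602.8, 3175.2 and 5546.5 CPM, against 3891.5 to 5480.4 CPM in controls, so RARdn 2 was the lowest there too. No gene of these lists was at 0 in all libraries, and their part in the cell cycle levels was not tested.

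**Figure D2:**
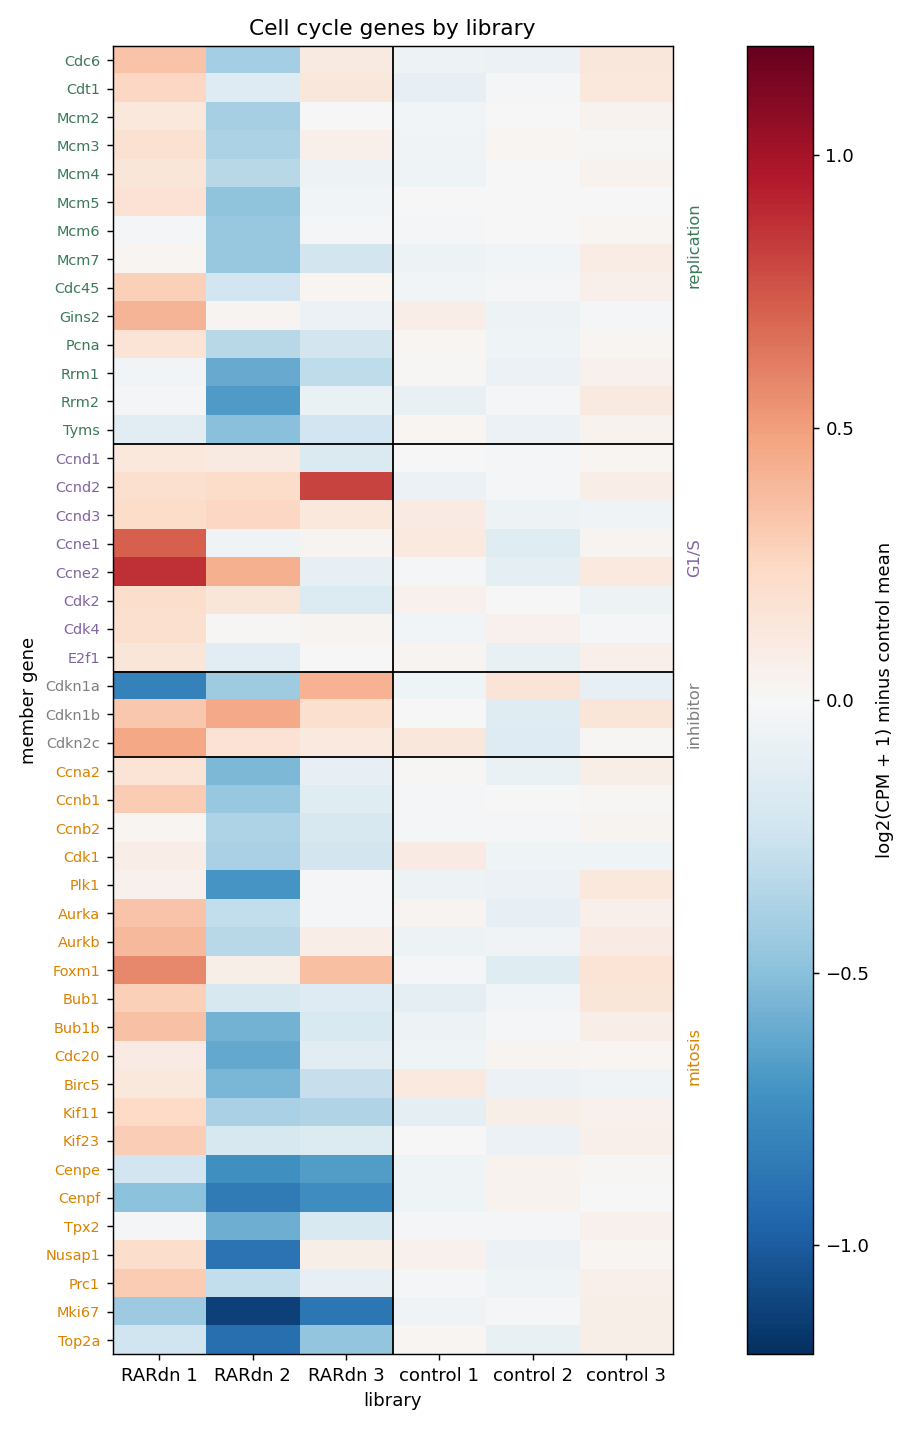
Each cell gives the difference between log2(CPM + 1) of a gene (rows, coloured by role) in a library (columns) and its mean over the 3 controls, red for higher and blue for lower. The RARdn 2 column is blue in all replication and mitosis rows other than Gins2 and Foxm1 and the RARdn 1 column mostly red there, while Mki67, Cenpf, Cenpe and Top2a are blue in all 3 RARdn columns.

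None of the 14 replication genes passed the test, 4 had fitted log2 fold changes above 0 and 10 below, and their median was -0.0806 beside 0.000513 for all genes tested. Without RARdn 2 the median was 0.0612. The licensing factors that load the helicase were Cdc6 and Cdt1. Cdc6 was at 24.1, 13.9 and 20.2 CPM in RARdn 1, 2 and 3 and at 17.9, 17.7 and 20.6 CPM in control 1, 2 and 3 (log2 0.0474, SE 0.19, adjusted p = 0.912). Cdt1 was at 40.9, 30.5 and 37.8 CPM in RARdn, against 31.9, 33.5 and 37.5 CPM in control pancreas (log2 0.0865, SE 0.13, adjusted p = 0.739). For both, RARdn 1 lay above and RARdn 2 below all controls.

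The 6 subunits of the MCM helicase all had fitted values below 0, and none passed. Mcm2 was at 93.1, 64.6 and 85.8 CPM in RARdn 1, 2 and 3 and at 83.3, 85.2 and 87.7 CPM in controls (log2 -0.0736, adjusted p = 0.795). Mcm3, Mcm4 and Mcm5 had log2 fold changes of -0.0269, -0.0721 and -0.0875, with adjusted p of 0.932, 0.786 and 0.788. Mcm6, the most abundant of the 6 in CPM, which is not a comparison per length, was at 153.3, 113 and 153.1 CPM in RARdn and at 153.7, 154.8 and 158.1 CPM in control pancreas (log2 -0.15, SE 0.14, adjusted p = 0.552). All its RARdn libraries lay below all controls, but RARdn 1 and 3 by less than 1% of the level, and the distance came from RARdn 2. Mcm7 was at 81.1 ± 13.5 CPM in RARdn and 93.7 ± 5.18 CPM in control pancreas (log2 -0.21, adjusted p = 0.387), and overlaps other genes, microRNA genes among them. Cdc45 and Gins2, the helicase partners, were at 15.2 ± 2.94 and 19.2 ± 3.64 CPM in RARdn, against 14.8 ± 0.589 and 17.4 ± 0.920 CPM in control pancreas (adjusted p 0.891 and 0.608).

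The 4 genes of the fork and of nucleotide supply all had log2 fold changes below 0, and none passed. Pcna, the sliding clamp of the polymerases, was at 129.9, 92.1 and 99.5 CPM in RARdn 1, 2 and 3, against 118.2, 111.6 and 118.2 CPM in controls (log2 -0.11, adjusted p = 0.673). Rrm1 and Rrm2, the subunits of ribonucleotide reductase, were at 94.5 ± 18.6 and 69.8 ± 16.6 CPM in RARdn and 116.4 ± 5.16 and 82.3 ± 5.997 CPM in control pancreas (log2 -0.30 and -0.24, adjusted p 0.265 and 0.449). Tyms, which makes thymidylate, was at 50.4, 38.8 and 47.1 CPM in RARdn, against 56.4, 52.6 and 57.1 CPM in controls (log2 -0.28, SE 0.11, unadjusted p = 0.0347, adjusted p = 0.187). It was the replication gene with the lowest p, and its groups did not overlap. Pcna and Tyms have annotated processed copies elsewhere in the genome, as do Ccnb1, Ccnb2 and Ccnd3, and reads that match both may be missing or split. Cdc45 and Gins2, and among the mitosis genes Ccna2, Plk1, Cdc20, Nusap1 and Prc1, overlap exons of genes on the other strand.

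The 8 genes of G1 and of entry into S phase all had fitted log2 fold changes above 0, from 0.00537 for E2f1 to 0.50 for Ccne2, and none passed. The D-type cyclins bind Cdk4 and are the cyclins through which growth signals reach the cycle. Ccnd2 was at 277, 282 and 427 CPM in RARdn 1, 2 and 3, against 231, 239.8 and 257 CPM in control pancreas (log2 0.44, SE 0.18, adjusted p = 0.205). Ccnd3 was at 171, 174 and 159.6 CPM in RARdn and at 157, 140.5 and 142 CPM in control pancreas (log2 0.20, SE 0.11, adjusted p = 0.316). For both, all RARdn libraries were above all controls, RARdn 3 by far the highest for Ccnd2. Ccnd1 averaged 91.0 ± 10.4 CPM in RARdn and 89.3 ± 1.14 CPM in control pancreas (log2 0.0270, adjusted p = 0.912).

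Cyclin E drives Cdk2 at the start of S phase. Ccne1 was at 23.6, 13.5 and 14.3 CPM in RARdn 1, 2 and 3, against 15.2, 12.5 and 14.3 CPM in controls (log2 0.29, adjusted p = 0.464). Ccne2 was at 17.8, 12.8 and 8.62 CPM in RARdn and at 9.21, 8.58 and 10.1 CPM in control pancreas (log2 0.50, SE 0.24, adjusted p = 0.263). Only RARdn 1 stood above the controls for Ccne1, and RARdn 1 and 2 did for Ccne2, which was called higher without RARdn 3 (log2 0.73, adjusted p = 0.0302, with a range of 0.0302 to 0.613 over 17 alternatives). The kinases Cdk2 and Cdk4 were at 49.1 ± 6.78 and 302 ± 21.6 CPM in RARdn, against 46.7 ± 1.84 and 285 ± 8.82 CPM in control pancreas. E2f1, an activator of S phase genes, was at 31.6 ± 3.10 and 31.5 ± 1.81 CPM in RARdn and control pancreas (adjusted p = 0.982). With correction for GC content and length the fitted values of E2f1, Ccnd1, Ccnd3 and Cdk2 were below 0 (-0.10, -0.029, -0.061 and -0.010). Ccnd1, Ccnd2, Ccnd3, Ccne2, Cdk2 and Cdk4 overlap exons of genes on the other strand, and without a stated strand setting such reads cannot be told apart.

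The 3 inhibitors did not share a direction, and none passed. Cdkn1a encodes p21, a target of p53 that stops the cycle. It was at 49.3, 64.7 and 116.8 CPM in RARdn 1, 2 and 3, against 84.1, 97.3 and 81.4 CPM in controls (log2 -0.19, SE 0.27, adjusted p = 0.728). RARdn 1 and 2 lay below and RARdn 3 above all controls, and without RARdn 3 the gene was called lower (log2 -0.62, adjusted p = 0.0276, with a range of 0.0276 to 0.930 over 17 alternatives). Cdkn1b encodes p27, which holds differentiating cells out of the cycle, and was at 53.5, 58.4 and 48.5 CPM in RARdn and at 42.4, 38.4 and 47.0 CPM in control pancreas. Every RARdn library was above every control (log2 0.33, SE 0.11, unadjusted p = 0.0177, adjusted p = 0.136), and without RARdn 3 the gene was called higher (log2 0.40, adjusted p = 0.0462, with a range of 0.0462 to 0.442 over 17 alternatives). Cdkn2c, an inhibitor of Cdk4 and Cdk6, was at 14.3 ± 2.06 CPM in RARdn and 11.9 ± 1.29 CPM in control pancreas (log2 0.27, adjusted p = 0.324). Among these 3, Cdkn1a overlaps a gene on the other strand.

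Among the 21 mitosis genes 1 fell and none rose, 18 had fitted log2 fold changes below 0 and 3 above, and the median was -0.15 beside 0.000513 for all genes tested. Without RARdn 2 the median was 0.0214. The promoters of the genes that lay lowest are shown first, with those of Kif23 and Prc1, mitosis genes with fitted values near 0, and of Mcm6, a replication gene. RefSeq windows of GRCm38.p6, from 250 bases before to 50 bases after the start of transcription, were found for 37 of the 46 genes. The 7 shown lie at Mki67 chr7:135716330-135716629 (minus strand), Cenpf chr1:189688037-189688336 (minus strand), Cenpe chr3:135212313-135212612 (plus strand), Top2a chr11:99024140-99024439 (minus strand), Kif23 chr9:61946750-61947049 (minus strand), Prc1 chr7:80294201-80294500 (plus strand) and Mcm6 chr1:128359656-128359955 (minus strand). Each is printed 5′ to 3′ on the strand of its gene. Capitals mark the words of 3 promoter motifs on either strand: TTTGAA and TTCGAA, the cell cycle genes homology region (CHR) bound by MuvB complexes, CCAAT, bound by NF-Y, and TTTCCCGC, TTTCGCGC, TTTGCCGC and TTTGGCGC, bound by E2F.
Mki67: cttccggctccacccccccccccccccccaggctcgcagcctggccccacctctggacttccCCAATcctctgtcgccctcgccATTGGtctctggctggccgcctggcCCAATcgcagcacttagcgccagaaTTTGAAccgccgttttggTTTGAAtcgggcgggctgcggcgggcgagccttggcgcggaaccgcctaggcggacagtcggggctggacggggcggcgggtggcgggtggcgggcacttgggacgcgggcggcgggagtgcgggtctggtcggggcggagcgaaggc
Cenpf: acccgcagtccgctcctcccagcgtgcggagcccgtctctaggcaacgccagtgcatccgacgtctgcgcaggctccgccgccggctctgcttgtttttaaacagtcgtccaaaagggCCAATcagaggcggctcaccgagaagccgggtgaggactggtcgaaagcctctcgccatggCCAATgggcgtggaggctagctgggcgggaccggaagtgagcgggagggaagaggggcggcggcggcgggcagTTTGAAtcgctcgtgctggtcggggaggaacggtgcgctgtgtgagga
Cenpe: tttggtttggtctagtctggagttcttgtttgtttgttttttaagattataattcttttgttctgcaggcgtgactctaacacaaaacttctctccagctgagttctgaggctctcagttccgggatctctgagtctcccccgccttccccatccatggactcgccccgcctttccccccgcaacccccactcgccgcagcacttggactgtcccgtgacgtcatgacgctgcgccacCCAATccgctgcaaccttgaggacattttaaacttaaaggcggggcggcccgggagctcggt
Top2a: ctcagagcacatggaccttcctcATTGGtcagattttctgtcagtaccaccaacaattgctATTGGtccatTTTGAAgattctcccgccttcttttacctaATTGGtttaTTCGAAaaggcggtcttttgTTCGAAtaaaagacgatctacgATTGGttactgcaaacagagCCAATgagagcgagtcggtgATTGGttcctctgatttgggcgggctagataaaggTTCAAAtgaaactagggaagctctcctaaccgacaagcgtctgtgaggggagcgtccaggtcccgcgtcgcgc
Kif23: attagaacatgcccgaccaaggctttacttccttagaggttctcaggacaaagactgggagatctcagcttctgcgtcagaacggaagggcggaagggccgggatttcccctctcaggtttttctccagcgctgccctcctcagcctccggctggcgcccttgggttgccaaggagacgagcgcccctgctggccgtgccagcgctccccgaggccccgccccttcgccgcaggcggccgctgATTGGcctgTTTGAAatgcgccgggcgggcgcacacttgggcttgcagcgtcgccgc
Prc1: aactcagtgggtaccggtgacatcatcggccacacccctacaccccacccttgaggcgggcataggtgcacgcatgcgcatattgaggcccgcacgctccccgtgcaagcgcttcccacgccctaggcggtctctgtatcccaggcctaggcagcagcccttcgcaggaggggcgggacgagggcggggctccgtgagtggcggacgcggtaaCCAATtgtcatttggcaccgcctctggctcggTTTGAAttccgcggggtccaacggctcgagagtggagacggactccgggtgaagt
Mcm6: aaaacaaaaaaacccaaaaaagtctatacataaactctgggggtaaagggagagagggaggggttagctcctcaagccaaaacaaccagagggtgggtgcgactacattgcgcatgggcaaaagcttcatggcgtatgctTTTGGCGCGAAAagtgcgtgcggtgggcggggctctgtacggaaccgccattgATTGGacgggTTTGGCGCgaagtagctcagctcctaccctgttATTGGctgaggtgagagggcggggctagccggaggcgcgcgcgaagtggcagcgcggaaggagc
The Mki67, Cenpf, Top2a, Kif23 and Prc1 windows hold both CHR and CCAAT words, the Cenpe window a CCAAT word alone, and the Mcm6 window E2F and CCAAT words, the first pair of its E2F matches overlapping each other. Kif23 and Prc1, with 1 CHR and 1 CCAAT word each, thus have the same motifs as Cenpf, which has 1 and 2. A match is a description of the letters and was not tested as a binding site.

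Counting the first window of each gene, CHR words were in 13 of 17 mitosis genes, 3 of 12 replication genes, 0 of 8 G1/S genes and inhibitors, and 19.4% of all 27025 genes in the promoter table. CCAAT was in 15 of 17, 9 of 12, 2 of 8 and 37.9%. The E2F words were in 1 of 17, 6 of 12, 1 of 8 and 2.32%. Mitosis and replication genes thus differed in how often CHR and E2F words were found, while CCAAT was frequent in both. Any link of these words to the levels in the libraries was not tested.

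Cenpf (chromosome 1, 189640606 to 189688086, GRCm38) was at 61.0, 47.4 and 50.9 CPM in RARdn 1, 2 and 3, against 83.3, 89.1 and 86.5 CPM in control 1, 2 and 3. It fell 1.62-fold (log2 -0.70, SE 0.11, adjusted p = 0.0168), with 3 of 3 RARdn libraries below every control. The call was lost without RARdn 2 (adjusted p = 0.0647), control 2 (0.0806) or control 3 (0.0594) and with library totals unscaled (0.134). It was also lost with a term for Xist (log2 -0.75), a fit that sets the RARdn libraries against control 2 alone. The log2 fold change of Cenpf stayed between -0.78 and -0.62 over the 17 alternatives, and its lowest adjusted p was 8.21e-05, with DESeq2. Mki67 (chromosome 7, 135689784 to 135716361), which coats mitotic chromosomes, was at 361, 224 and 268 CPM in RARdn, against 477, 480.4 and 513 CPM in controls. The highest RARdn library was thus well below the lowest control (log2 -0.78, SE 0.19, adjusted p = 0.0539). It was the largest fitted difference of the 46 genes, larger than that of Cenpf but with more spread, and it was called in 7 of the 17 alternatives, whose adjusted p ranged from 0.00079 to 0.391. Among these were those without RARdn 1 (adjusted p = 0.0214) and without RARdn 3 (0.0441).

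Cenpe (chromosome 3, 135212537 to 135273611), a kinesin that carries chromosomes to the spindle equator, was at 50.6, 35.5 and 37.2 CPM in RARdn 1, 2 and 3, against 57.5, 61.6 and 60.1 CPM in controls (log2 -0.54, SE 0.14, adjusted p = 0.0701). It was called without RARdn 1 (adjusted p = 0.0170) and in 4 of 17 alternatives, with a range of 0.0170 to 0.368. Top2a (chromosome 11, 98992943 to 99024189), the topoisomerase that untangles sister chromatids, was at 238, 149.9 and 202 CPM in RARdn, against 285, 264 and 295 CPM in control pancreas (log2 -0.52, SE 0.17, adjusted p = 0.130). Top2a overlaps another gene on its own strand, so part of its reads may be missing. Cenpe and Top2a each had RARdn 1 nearest to the controls and no overlap between groups. Together with Cenpf and Mki67 they were the only 4 mitosis genes without overlap. This is 19% of the 21 with all RARdn libraries lower, beside 13.7% of all genes tested. The 4 were picked out here after their values were seen.

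**Figure D3:**
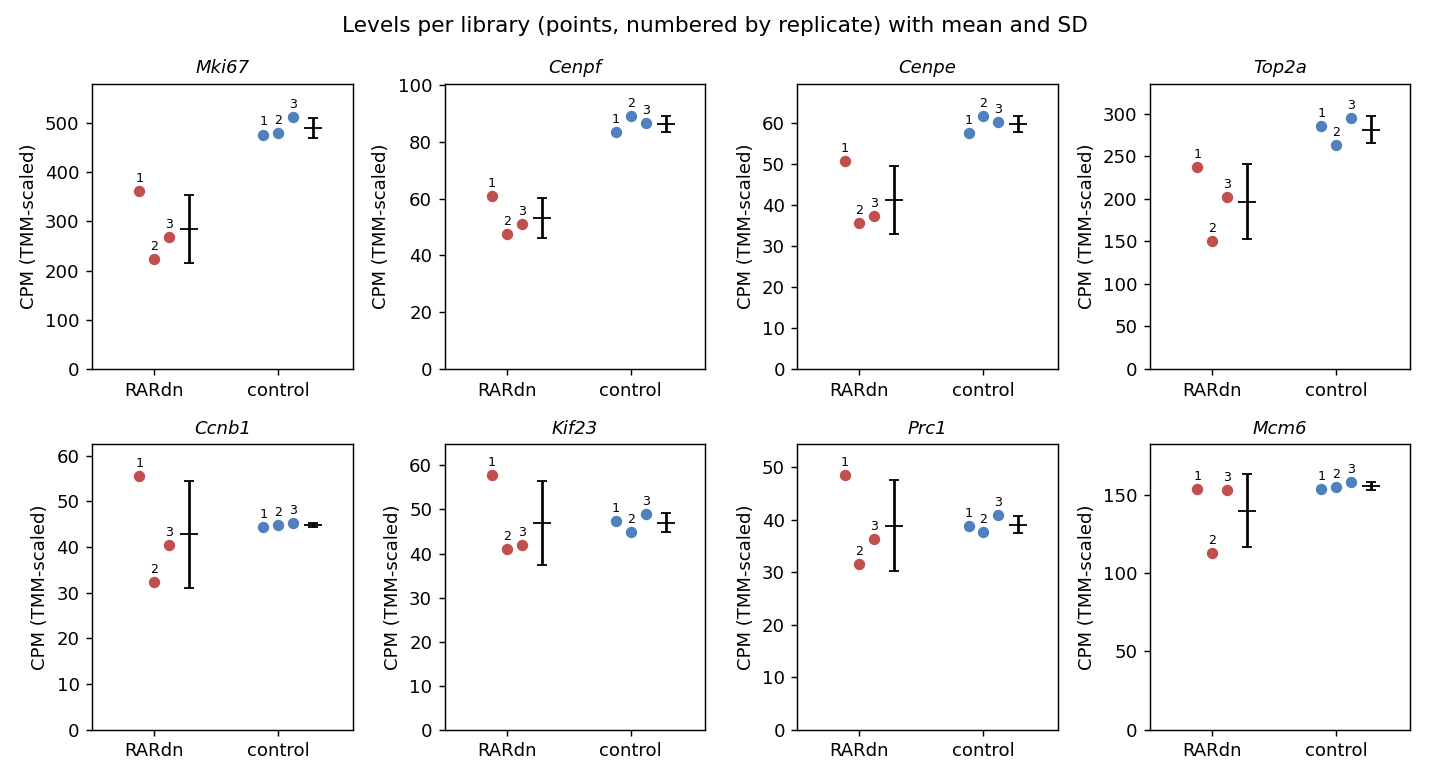
Levels in TMM-scaled CPM (y axes, from 0) of 8 genes in each RARdn and control library, with replicate numbers above the points and mean ± SD (n = 3) beside them. In the upper row (Mki67, Cenpf, Cenpe and Top2a) the RARdn points lie below all control points, and in the lower row Ccnb1, Kif23 and Prc1 have RARdn 1 above and RARdn 2 below the controls, while only RARdn 2 of Mcm6 is far from them.

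The other 17 mitosis genes overlapped between the groups without exception, with fitted log2 fold changes from -0.25 for Tpx2 to 0.35 for Foxm1, a median of -0.13 and adjusted p of at least 0.193. In RARdn 1 they lay above the control mean for 16 of the 17, with a median difference of 0.237 on the log2(CPM + 1) scale, and in RARdn 2 and 3 the medians were -0.39 and -0.148. Kinesin Kif23 and the bundling protein Prc1 build the central spindle. Kif23 was at 57.9, 40.9 and 41.9 CPM in RARdn 1, 2 and 3, against 47.3, 44.8 and 49.0 CPM in controls (log2 -0.0030, SE 0.14, adjusted p = 0.993). Prc1 was at 48.4, 31.6 and 36.4 CPM in RARdn, against 38.7, 37.6 and 40.8 CPM in controls (log2 -0.0074, SE 0.15, adjusted p = 0.983). In both genes the control values lay inside the RARdn range. The spindle motor Kif11 and the spindle assembly factors Tpx2 and Nusap1 had log2 fold changes of -0.15, -0.25 and -0.13, and none passed. Nusap1 ranged from 22.1 CPM in RARdn 2 to 48.2 CPM in RARdn 1.

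Cyclins and kinases of mitosis showed no difference between the groups that passed. Ccnb1, the cyclin that drives entry into mitosis, was at 55.6, 32.4 and 40.4 CPM in RARdn 1, 2 and 3, against 44.4, 44.7 and 45.3 CPM in controls (log2 -0.0664, SE 0.17, adjusted p = 0.860). Its partner Cdk1 was at 64.4 ± 10.9 CPM in RARdn and 72.3 ± 4.52 CPM in control pancreas (log2 -0.17, adjusted p = 0.4905). Ccna2 and Ccnb2 had log2 fold changes of -0.13 and -0.17 (adjusted p 0.694 and 0.404), and the kinases Plk1, Aurka and Aurkb of -0.19, 0.0359 and 0.0766 (adjusted p 0.591, 0.921 and 0.832). Foxm1, the transcription factor of the G2 and M genes, had the highest fitted value of the mitosis genes, at 61.8, 43.3 and 53.3 CPM in RARdn, against 40.8, 37.1 and 46.1 CPM in controls (log2 0.35, SE 0.14, unadjusted p = 0.0369, adjusted p = 0.193). Its RARdn 2 value was within the control range and the other 2 above it. Foxm1 overlaps other genes on its own strand, so part of its reads may be missing.

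None of the 4 genes of the spindle checkpoint and of anaphase passed. Bub1 and Bub1b, kinases of the checkpoint, were at 23.8 ± 4.77 and 49.2 ± 16.2 CPM in RARdn, against 23.9 ± 2.33 and 52.4 ± 2.84 CPM in control pancreas (adjusted p 0.982 and 0.839). Cdc20, the activator of the anaphase-promoting complex, was at 83.2, 50.6 and 70.4 CPM in RARdn and at 74.9, 79.6 and 78.8 CPM in control pancreas (log2 -0.19, adjusted p = 0.537). Birc5, which encodes survivin of the chromosomal passenger complex, was at 55.6 ± 13.5 CPM in RARdn and 64.3 ± 4.54 CPM in control pancreas (log2 -0.21, adjusted p = 0.494). In all 4 genes RARdn 1 was the highest RARdn library and RARdn 2 the lowest.

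Within a library, the ratio of counts of 2 genes does not depend on the scaling. Mki67 per Ccnb1 count was 6.50, 6.92 and 6.64 in RARdn 1, 2 and 3, against 10.7, 10.7 and 11.3 in controls. This ratio varied little within either group although Mki67 and Ccnb1 each varied between the RARdn libraries. Mki67 per Mcm2 count was 3.88, 3.47 and 3.12 in RARdn, against 5.72, 5.64 and 5.85 in controls, and Top2a per Pcna count was 1.83, 1.63 and 2.03 in RARdn, against 2.41, 2.36 and 2.496 in controls. Not every pair separated the groups. Cdkn1a per Mki67 count was 0.14, 0.29 and 0.44 in RARdn 1, 2 and 3 and 0.18, 0.20 and 0.16 in controls, with overlap. The pairs were chosen after the values of the genes were seen, so these ratios are given with no test.

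Set against each other, mitosis and replication genes varied together across the RARdn libraries. The mean of the 21 mitosis genes on the log2(CPM + 1) scale in RARdn 1, 2 and 3 lay at 0.114, -0.519 and -0.213 from that of the controls, and that of the 14 replication genes at 0.135, -0.384 and -0.0644. The mitosis mean minus the replication mean was 0.0734, -0.0403 and -0.0543 in RARdn 1, 2 and 3, and 0.103, 0.086 and 0.0941 in control 1, 2 and 3. All RARdn libraries were thus lower in this difference than all controls, with a mean difference of -0.10 log2 units (-0.00707 ± 0.0700 in RARdn and 0.0942 ± 0.00831 in control pancreas, SD, n = 3 each). A score over chosen genes gets no p here. Mki67, Cenpf, Cenpe and Top2a, which lay lowest, are 4 of its 21 mitosis genes, and the score was not computed without them. The other 17 had median differences from the controls of 0.237, -0.39 and -0.148 in RARdn 1, 2 and 3. For the 14 replication genes the medians were 0.154, -0.40 and -0.048. By medians the other 17 lay below the replication genes only in RARdn 3. The score uses means, so these medians do not give its value without the 4 genes. The lower score is thus not shown for mitosis genes at large.

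**Figure D4:**
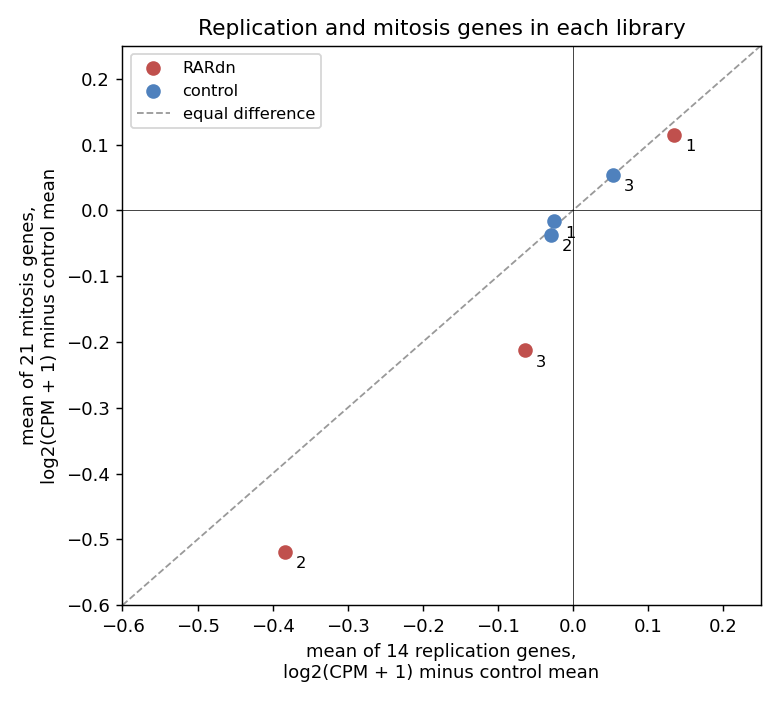
Each point is a library, with its replicate number, placed by the mean of the 14 replication genes (x axis) and of the 21 mitosis genes (y axis), both as log2(CPM + 1) minus the control mean, and the dashed line marks equal differences. The controls gather around 0, RARdn 1 lies above them on both axes, and RARdn 2 and 3 lie lower on both axes. All 3 RARdn points lie below the line.

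The 4 genes that lay lowest are among the longest of the 46 by exonic length. In GENCODE M21 the merged exons span 15.4 kb for Cenpf, 10.1 kb for Mki67, 9.01 kb for Top2a and 8.62 kb for Cenpe, where the median of the 21 mitosis genes was 4.35 kb. Other long members had smaller or opposite differences. Prc1 at 8.22 kb and Kif23 at 7.90 kb had log2 fold changes of -0.0074 and -0.0030, Rrm1 at 11.01 kb had a log2 fold change of -0.30, and Ccnd2 at 9.41 kb one of 0.44. Across the 21 mitosis genes Spearman's correlation of log2 fold change with exonic length was -0.29, and across the 14 replication genes it was also -0.29. Across all 46 it was -0.19, and across 18989 tested genes with a length it was 0.0375. Genes of one library are not independent, so these are descriptions. With correction for GC content and length Cenpf, Mki67 and Cenpe were called lower, with log2 fold changes of -0.63, -0.87 and -0.57, where 5.4% of all genes were called. The value of Cenpf was thus smaller in size than its -0.70 without the correction. Those of Mki67 and Cenpe were larger in size than their -0.78 and -0.54. Top2a, not called, went from -0.52 to -0.56. The shares of ribosomal RNA and of reads outside genes, which did not overlap between the groups, differed beside these genes too, and their part was not tested.

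**Figure D5:**
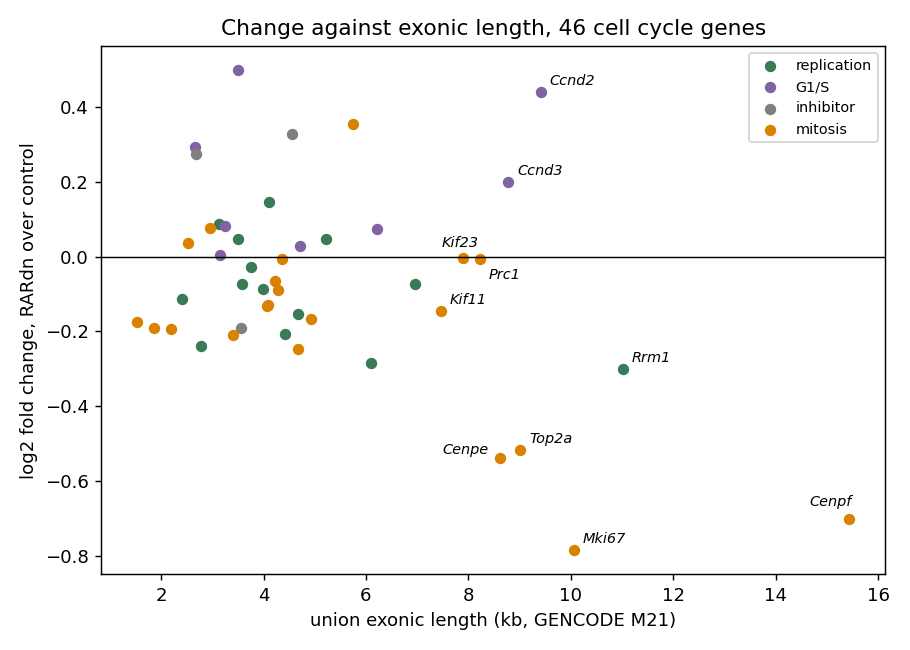
Fitted log2 fold change (y axis, RARdn over control) of the 46 genes against the merged exonic length (x axis, kb), coloured by role. Cenpf, Mki67, Top2a and Cenpe lie at the lower right, while Kif23, Prc1, Ccnd2 and Ccnd3, of similar length to Cenpe and Top2a, lie near or above 0.

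Further genes of the same machinery were read from 3 lists that did not hold the 46. None of 50 other replication genes, 80 other mitosis genes or 29 tested regulators was called by edgeR, and an unadjusted p under 0.05 was found for 2, 4 and 2 of them, a smaller share in each list than the 22.2% of all genes. By DESeq2 the calls numbered 1, 1 and 0. Their median log2 fold changes were -0.0440, -0.0388 and 0.0605. The order RARdn 1, 3, 2 from high to low held for 31 of 50, 53 of 80 and 13 of 29. Hjurp, the chaperone that places the centromeric histone, had the lowest p of the other mitosis genes, at 184, 99.7 and 136 CPM in RARdn 1, 2 and 3, against 216, 208 and 230.0 CPM in controls (log2 -0.64, SE 0.20, adjusted p = 0.115). Pimreg and Cenpt lay on the other side, with log2 fold changes of 0.30 and 0.41 (adjusted p 0.140 and 0.156). Of the other replication genes Pola1, the catalytic subunit of the polymerase that starts each strand, was at 27.9, 21.5 and 24.7 CPM in RARdn, against 34.0, 35.0 and 32.1 CPM in controls (log2 -0.45, SE 0.12, adjusted p = 0.0724). Wdhd1 and Tonsl had log2 fold changes of -0.50 and 0.30 (adjusted p 0.145 and 0.248). For Hjurp, Pola1 and Wdhd1 all RARdn libraries were below all controls, as for 3 of the 50 other replication genes, 4 of the 80 other mitosis genes and 13.7% of all genes. Among the regulators Mycn, Rbl2 and Trp53 had the lowest p, with log2 fold changes of 0.46, 0.32 and 0.19 (adjusted p 0.125, 0.156 and 0.315).

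Of the summed cell type levels, that of the mesenchyme list alone did not overlap between the groups. The summed level of 12 mesenchyme genes was 9458.8, 10774 and 9823.9 CPM in RARdn 1, 2 and 3, against 5731.3 to 7734.4 CPM in controls. Of these 12 genes 2 were called higher, where 1.37% of all genes tested were called higher and 2.65% lower. In the hepatocyte list 2 of 8 tested genes were called higher, and Alb was at 597, 137 and 3.19 CPM in RARdn 1, 2 and 3, against 1.18 to 2.92 CPM in controls. Liver of this age is a dividing tissue. RARdn 1, with the highest Alb level, had the highest level of all 6 libraries for 13 of 21 mitosis and 9 of 14 replication genes. RARdn 2, whose Alb level was also above all controls, had the lowest level for 20 and 13 of them. RARdn 3 had an Alb level near that of the controls, and Cenpf and Mki67 were at 50.9 and 268 CPM there, below every control. The summed level of 15 endocrine genes, the lineage in which the driver acts, was 3457.4, 3496.8 and 2737.2 CPM in RARdn, against 3298.9 to 3698.2 CPM in controls, with 1 gene called higher and 1 lower. That of 10 duct and trunk genes was 1317.4, 1582.7 and 2347.1 CPM in RARdn, against 1946 to 2128.9 CPM in controls. Endothelial genes summed to 558 to 591 CPM in RARdn and 513 to 626 CPM in control pancreas, and 15 white blood cell genes to 546 to 717 CPM and 479 to 656 CPM. Of these 15 genes 14 were tested, and 1 was called higher. No endothelial, duct, acinar, erythroid, neural crest or glia gene of the lists was called, and the part of any of these cell types in the cell cycle levels was not tested.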

How the data were processed

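Total RNA of whole pancreas was sequenced from 3 RARdn and 3 control embryos. Each sample had a deposited table of unnormalized read counts by gene symbol. The submitters' processing notes name HISAT2, HTSeq, cutadapt, FastQC, DESeq2 and bedtools and the builds GRCm38 and mm10. No version, annotation or strand setting is given in the sources used here. Summary lines of the tables entered neither library totals nor fits (reads outside genes 2.90% to 8.99% of all reads).

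Low genes were removed with filterByExpr, and RARdn was compared with control over all 19070 remaining genes by edgeR 4.0.16 (R 4.3.3; TMM scaling, quasi-likelihood test, 2-sided, genotype as the only term). P-values were adjusted over all of them (Benjamini-Hochberg), and a gene was called under 0.05. An SE was obtained by dividing the size of the log2 fold change by the root of its F statistic. Libraries were compared on log2(CPM + 1). Fits were tested on simulated data. Alternatives used limma 3.58.1, DESeq2 1.42.0, other scalings and filters, a replicate block, a term for Xist, GC and length offsets, and each library left out. Positions and lengths come from GENCODE M21, promoters from RefSeq.

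All 46 genes may be named, plus, by list, the other cell cycle genes of lowest p and the most abundant cell type gene. Members and lists were chosen with earlier results of these data known. Of 313 list entries, 312 matched.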

Additional observations from a re-analysis of the deposited data

How the results depend on the processing

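The call of Cenpf alone among the 46 genes, and 767 genes in all, depended on the processing. Genes called numbered 2346 without a filter on low counts, 217 with at least 1 CPM in 3 libraries, 2302 with DESeq2, 61 with a term for Xist and 474 with library totals unscaled, an alternative chosen after seeing the data. Leaving out 1 library gave 100 (without control 2) to 2980 (without RARdn 3). Of the 46 genes, 3 were called without a filter and 4 with DESeq2 (6.52% and 8.7%, beside 6.92% and 9.58% of all genes). With limma-voom and with robust dispersions 2 were called (4.35%, beside 4.17% and 4.38%), and 3 with GC and length correction (6.52%, beside 5.4%). A term for Xist and unscaled totals gave 0 each, beside 0.32% and 2.49% of all genes. With 1 library left out 0 to 5 were called, beside 0.509% to 14.8% of all genes. For the term for Xist and the left-out libraries fewer residual degrees of freedom are part of the alternative, and otherwise the cause was not tested. With the term for Xist the genotype difference rests on control 2 alone against the RARdn libraries, since the term takes up controls 1 and 3, the only ones high in Xist. The calls of that fit are thus not a comparison with all 3 controls. Medians of replication genes (-0.18 to 0.0612) and mitosis genes (-0.30 to 0.0214) and the mitosis minus replication difference (-0.14 to -0.078) moved by less than 1 SD between libraries. Same-numbered deviations correlated at 0.0129, -0.0135 and 0.126. The last was the highest of all pairs of a RARdn and a control library, while RARdn 1 correlated best with control 2. With 3 libraries per group these values cannot decide whether replicate numbers pair the samples. The replicate block gave 817 genes and 1 of the 46.

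Of 782 values of single genes under 17 alternatives, 712 kept direction and call, 15 gained and 5 lost a call, and 50 changed sign. The 22 genes with a sign change had main log2 fold changes of at most 0.20 in size, none called. The log2 values of opposite sign were -0.0012 for E2f1 with RLE scaling and -0.0089 with at least 1 CPM; 0.00077 for Mcm3, 0.016 for Bub1, 0.022 for Kif23 and 0.018 for Prc1 without a filter; and 0.035, 0.067 and 0.046 for Bub1, Kif23 and Prc1 with a term for Xist. With GC and length correction they were -0.010 for Cdc6, -0.019 for Cdt1, 0.0011 for Mcm4, -0.029 for Ccnd1, -0.061 for Ccnd3, -0.010 for Cdk2, -0.10 for E2f1 and 0.12 for Bub1. With unscaled totals they were 0.029 for Mcm3, 0.011 for Ccnb1, 0.066 for Bub1, 0.070 for Kif23 and 0.065 for Prc1. With 1 library left out the log2 values ranged from -0.11 to 0.25 for Cdc6, -0.079 to 0.18 for Cdc45, -0.15 to 0.072 for Mcm2, -0.11 to 0.13 for Mcm3, -0.17 to 0.050 for Mcm4, -0.21 to 0.083 for Mcm5, -0.012 to 0.12 for Ccnd1, -0.043 to 0.077 for E2f1, -0.62 to 0.084 for Cdkn1a, -0.27 to 0.046 for Ccna2, -0.27 to 0.10 for Ccnb1, -0.30 to 0.021 for Plk1, -0.13 to 0.19 for Aurka, -0.085 to 0.25 for Aurkb, -0.16 to 0.087 for Bub1, -0.34 to 0.11 for Bub1b, -0.16 to 0.092 for Kif23, -0.31 to 0.15 for Nusap1 and -0.17 to 0.13 for Prc1.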
